A study of Arabidopsis thaliana with 6 samples.

Results

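The plastid-encoded transcripts are the messages read from the small circular genome that plastids keep. They were chosen as every probe set of the array whose single listed gene lies on the plastid genome in the TAIR10.1 gene table. That rule gave 69 genes with 1 probe set each, out of 13286 genes that could be named and 22746 probe sets tested. The TAIR10.1 table lists 129 plastid gene entries, of which 85 code for proteins, 37 are tRNA genes and 7 rRNA genes, and all 69 measured genes are protein coding. Another 8 probe sets list a pair of plastid gene IDs under the same symbol, as genes of the inverted repeat do, and were left out because the rule asks for a single gene.

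Root tips of an Arabidopsis thaliana quadruple mutant, which combines phb-13 and phv-6 with athb8-11 and cna-2, were compared with Col er-2, which the labels call wild type. The 4 mutated genes belong to the HD-ZIP III family of transcription factors, which pattern the vascular cylinder of the root. The name Col er-2 carries the er-2 allele of ERECTA, and the labels do not say whether the mutant carries it as well. The outermost 0.5 mm of primary roots was dissected from untreated seedlings 4 days after germination, grown upright in the light on medium with sucrose, and about 200 tips were pooled for each of 3 replicates per genotype. Each replicate was measured on 1 Affymetrix ATH1 array as a log2 signal after RMA, a method that subtracts background, forces the arrays to nearly one distribution and summarises the probes of a set. The comparison asks how root tip transcripts differ when these 4 genes are mutated.

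Plastid genes encode the core subunits of the photosystems, the cytochrome b6f complex, the ATP synthase, the NDH complex and the large subunit of Rubisco, together with part of the plastid's own ribosome and RNA polymerase. They are read by a bacterial-type polymerase whose core is itself plastid-encoded, helped by nuclear sigma factors, and by a phage-type polymerase encoded in the nucleus. Root tip plastids are mostly proplastids and, in the columella of the root cap, starch-filled amyloplasts, in which photosynthetic transcripts are kept low. The labelling kit belongs to a type that starts cDNA at poly(A) tails, and plastid messages carry few lasting tails, so the signals show what that priming captured from each message. Signals of different probe sets were therefore not set against each other.

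Over all probe sets, Pearson correlations between arrays ranged from 0.989 to 0.996. On the first principal component, which held 41.4% of the variance, both first replicates were lowest. Mutant replicate 1 was at -11.4 and Col er-2 replicate 1 at -28.1, with the other 4 arrays between -0.96 and 18.5. On the second component mutant replicates 1, 2 and 3 were at -15, -4.34 and -11.2, against 8.02, 1.48 and 21 for Col er-2 replicates 1, 2 and 3. Col er-2 replicate 3 was thus the highest array there. Without replicate 1 of both genotypes the median plastid difference was 0.093 and 0 genes passed the limma threshold, with 2 at an unadjusted p under 0.05, not split by direction. The smallest limma adjusted p was then 0.717, of petD, which was lower in the mutant. Its signals on replicates 2 and 3 were 4.89 and 4.96 in the mutant, against 5.32 and 5.19 in Col er-2.

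No plastid gene passed the test. With limma and Benjamini-Hochberg adjustment over all 22746 probe sets, 0 of 69 plastid genes had an adjusted p under 0.05, where 0.0264% of all probe sets did. The smallest adjusted p was 0.396, that of rpl36. An equal-variance test per probe set also called 0. At an unadjusted p under 0.05 there were 6 plastid genes, all higher in the mutant, or 8.70% against 4.21% of all probe sets that were higher at that p, and 0 were lower, against 3.26%. With 1 array left out the count became 2 without mutant replicate 1, 1 without mutant replicate 3 and 10 without Col er-2 replicate 2, and 4 to 8 without each of the others. These left-out counts are not split by direction. Without Col er-2 replicate 3 the smallest adjusted p was that of atpA, which was lower in the mutant (difference -0.41, limma adjusted p = 0.393). Among all probe sets the main fit to all 6 arrays gave 4 calls higher and 2 lower.

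The differences were small. Mutant minus Col er-2 ran from -0.22 for atpA to 0.47 for ycf3 on the log2 scale. For all 69 genes the 95% confidence interval lay within a 2-fold change of the RMA signal, and for 60 it lay within 1.5-fold. These intervals are not adjusted for the number of genes, and in RMA values the differences of dim probe sets are compressed. Of the 69 genes 4 (atpI, petL, petG and ndhE) had a mean signal below the array's 35th percentile, taken over all probe sets, and 65 lay above it. Without detection calls in the table, low signals do not show that a transcript was absent.

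**Figure D1:**
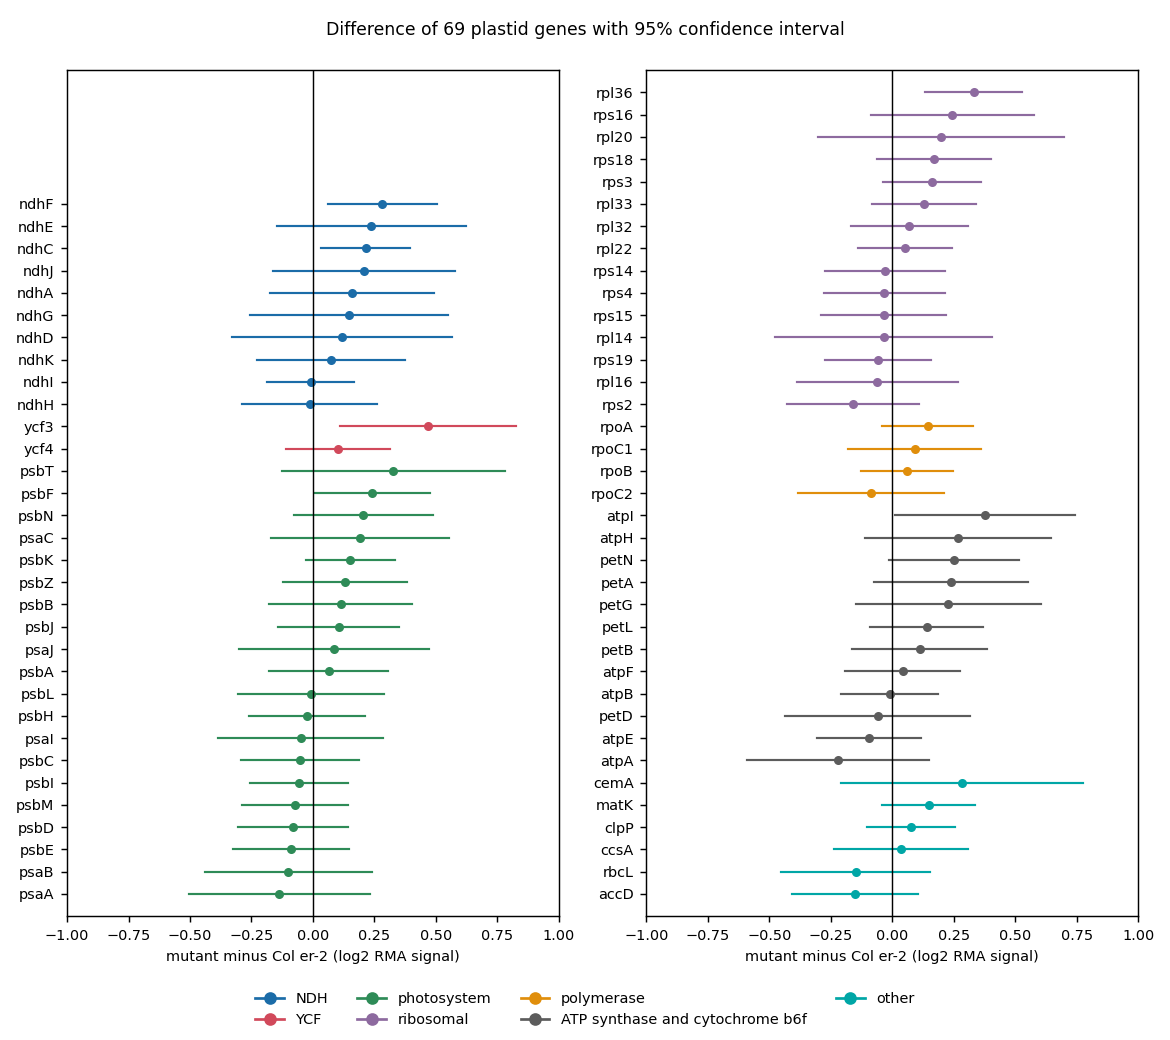
Mutant minus Col er-2 log2 RMA signal (horizontal axis) for each of the 69 plastid genes (rows), coloured by class; points are limma estimates and lines 95% confidence intervals, not adjusted for the number of genes. All intervals lie between -1 and 1, and most include 0.

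More plastid genes had a positive than a negative difference, 43 against 26, or 62.3% positive, where 52.6% of all probe sets had a positive difference. Their median difference was 0.085, against 0.0076 over all probe sets. Every mutant array lay above every Col er-2 array for 5 genes, rpl36, ndhF, ndhC, psbK and rpoA, or 7.25% of them, where 7.55% of all probe sets showed that order. The opposite order was seen for 0 plastid genes, against 5.57% of all probe sets. The share with every mutant array higher was thus near that of the whole array.

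A single Col er-2 array was low for most of the 69 plastid genes. Each plastid signal was expressed as its deviation from the gene's own mean over the 6 arrays, and the median of these deviations was taken per array. The medians were 0.098, 0.021 and 0.018 on mutant replicates 1, 2 and 3, against -0.0031, 0.084 and -0.16 on Col er-2 replicates 1, 2 and 3. The groups overlapped, with Col er-2 replicate 2 above 2 of the mutant arrays and Col er-2 replicate 3 below all others. Col er-2 replicate 3 held the lowest of the 6 signals for 38 of 69 genes, or 55.1%, where it held the lowest for 15.7% of all probe sets. Mutant replicate 1 held the highest for 27 genes, or 39.1%, against 11.5% of all probe sets, and Col er-2 replicate 2 for 20 genes, or 29.0%, against 10.5%.

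Over all probe sets the medians of these deviations lay between -0.026 and 0.031 on every array, which the scaling of the arrays to nearly one distribution holds near 0. Without Col er-2 replicate 3 the median plastid difference was 0.042, with 40 genes positive and 29 negative. The median standard deviation of a plastid gene was 0.12 among mutant arrays and 0.16 among Col er-2 arrays, against 0.11 and 0.12 over all probe sets. In pooled tips, fewer cells of a type, fewer plastids per cell and less RNA per plastid cannot be told apart.

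**Figure D2:**
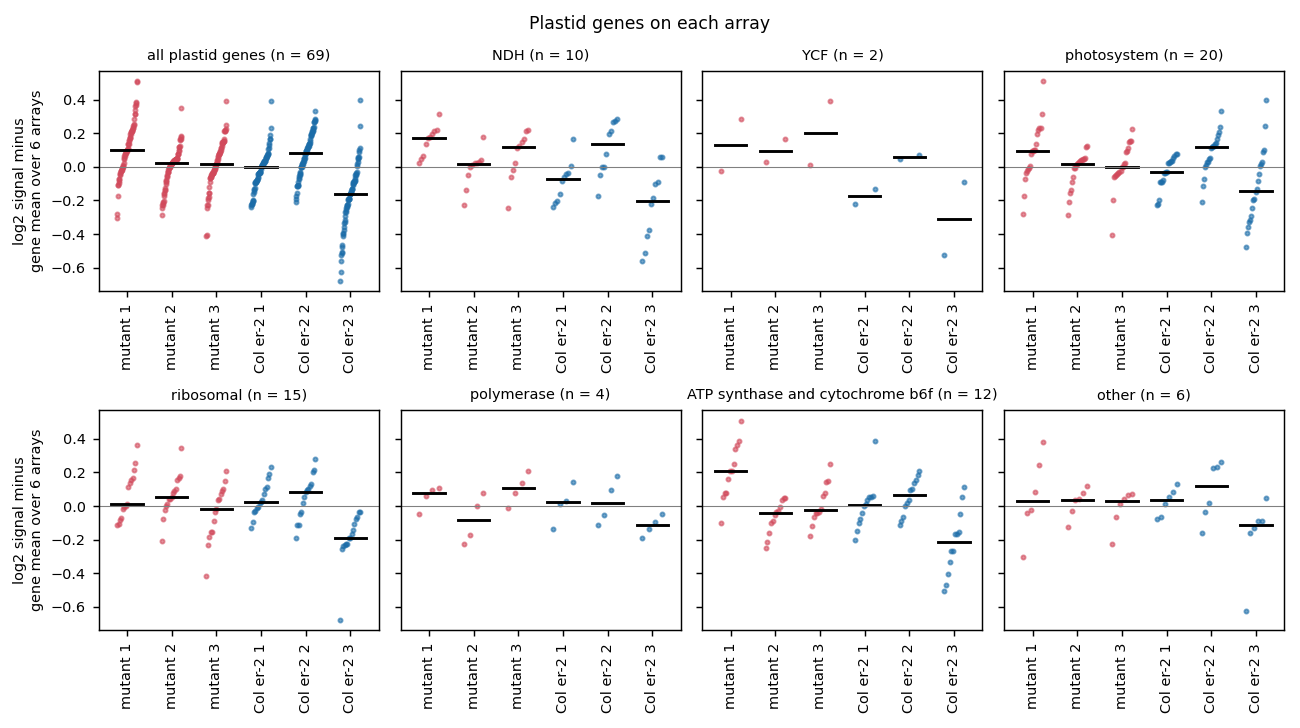
Deviation of each plastid gene's log2 RMA signal from its own mean over the 6 arrays (vertical axis) on each array (horizontal axis), for all 69 genes and by class; red points are mutant arrays, blue points Col er-2 arrays and black bars medians. Col er-2 replicate 3 has the lowest median in all panels, at -0.16 over all genes.

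The array values of the 6 genes with the smallest p were set out singly, and other genes of the same class follow in their place below. In 3 of them, rpl36, ycf3 and atpI, Col er-2 replicate 3 was the lowest array of all, and without it their differences were 0.28, 0.32 and 0.27, against 0.33, 0.47 and 0.38 with all arrays. The other 3 differed without it by 0.26 (ndhF), 0.22 (ndhC) and 0.21 (psbF).

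**Figure D3:**
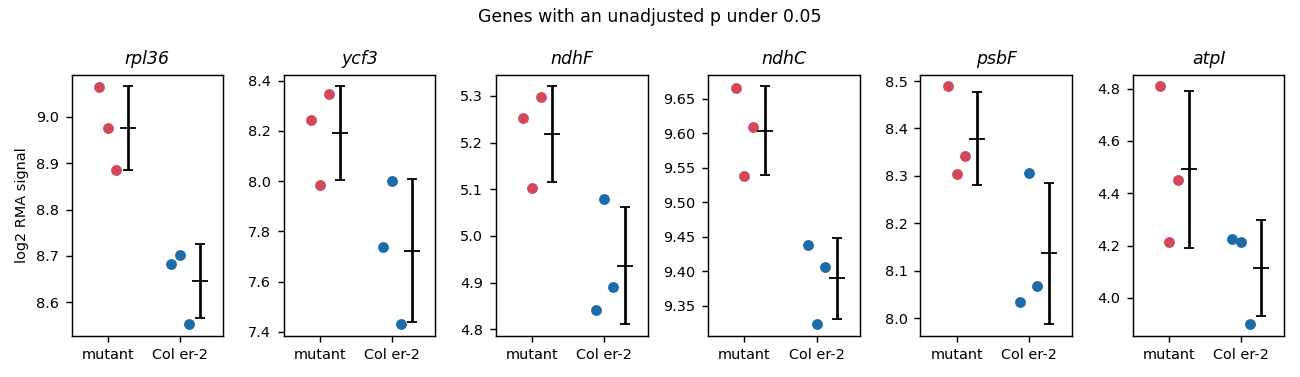
Log2 RMA signal (vertical axes, each with its own range and not from 0) of rpl36, ycf3, ndhF, ndhC, psbF and atpI on the 3 mutant (red) and 3 Col er-2 (blue) arrays; black marks show mean and SD. The groups do not overlap for rpl36, ndhF and ndhC, and they overlap for ycf3, psbF and atpI.

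Photosystem genes, the psa genes of photosystem I and the psb genes of photosystem II, were evenly divided. Of 20 measured, 10 had positive and 10 negative differences, 0 passed the limma threshold in either direction and 1, psbF, had an unadjusted p under 0.05. Their median difference was 0.028, with a range of -0.14 (psaA) to 0.33 (psbT). Leaving out 1 array moved that median to between -0.029, without Col er-2 replicate 1, and 0.11, without Col er-2 replicate 2. For psbF, which encodes the beta subunit of cytochrome b559, the log2 signals were 8.49, 8.30 and 8.34 in the mutant, against 8.03, 8.31 and 8.07 in Col er-2. Mutant replicate 2 and Col er-2 replicate 2 lay almost together, so the groups met. It differed by 0.24 (95% confidence interval 0.0088 to 0.47), with a limma adjusted p of 0.652.

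The small photosystem II subunit gene psbK had 8.39, 8.33 and 8.39 in the mutant and 8.20, 8.30 and 8.14 in Col er-2. All mutant values were higher by a narrow margin, a difference of 0.15 (-0.030 to 0.33) with a limma adjusted p of 0.741. The other small subunit gene chosen, psbM, had 10.92, 10.81 and 10.62 in the mutant, against 10.86, 10.86 and 10.85 in Col er-2, which lay inside the mutant range. For psbA, which encodes the D1 reaction centre protein, the difference was 0.063 (-0.18 to 0.30). The reaction centre genes of photosystem I, psaA and psaB, differed by -0.14 (-0.51 to 0.23) and -0.10 (-0.44 to 0.24), and psaA ran from -0.23, without mutant replicate 2, to 0.028, without Col er-2 replicate 3.

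NDH genes encode subunits of the thylakoid complex that passes electrons from ferredoxin into the plastoquinone pool during cyclic electron flow. Of the 10 measured, 8 had positive differences and 2 negative, with a median of 0.15 and a range of -0.013 (ndhH) to 0.28 (ndhF), and 0 passed the limma threshold. At an unadjusted p under 0.05 there were 2, ndhF and ndhC. The membrane subunit gene ndhF had log2 signals of 5.25, 5.10 and 5.30 in the mutant, against 4.84, 5.08 and 4.89 in Col er-2. Mutant replicate 2 lay just above Col er-2 replicate 2, and the groups did not overlap. This difference of 0.28 (95% confidence interval 0.060 to 0.50), 1.22-fold, had a limma adjusted p of 0.550.

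For ndhC, another membrane subunit gene, the signals were 9.67, 9.54 and 9.61 in the mutant, against 9.44, 9.32 and 9.41 in Col er-2. The groups were separate, with a difference of 0.21 (0.032 to 0.40) and a limma adjusted p of 0.582. The gene ndhI, which encodes an iron-sulfur subunit, had 11.07, 11.02 and 10.97 in the mutant, against 11.03, 10.98 and 11.08 in Col er-2, and differed by -0.0099 (-0.19 to 0.17). The class median depended on single arrays. It was 0.029 without Col er-2 replicate 3, with 7 of 10 genes positive, and 0.25 without mutant replicate 2 or without Col er-2 replicate 2. On mutant replicates 1, 2 and 3 the median deviation of the NDH genes was 0.17, 0.016 and 0.12, against -0.073, 0.14 and -0.20 on Col er-2 replicates 1, 2 and 3.

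Genes of the ATP synthase (atp) and the cytochrome b6f complex (pet) numbered 12, of which 8 had positive and 4 negative differences. The median was 0.13, 0 passed the limma threshold and 1, atpI, had an unadjusted p under 0.05. That median was 0.051 without Col er-2 replicate 3 and 0.21 without mutant replicate 2. Without probe sets below the 35th percentile it was 0.041, with 5 of 9 genes positive. For atpI, which encodes subunit a of the membrane part of the ATP synthase, the signals were 4.81, 4.21 and 4.45 in the mutant, against 4.22, 4.21 and 3.90 in Col er-2. Mutant replicate 2 fell among the Col er-2 arrays. The difference of 0.38 (0.012 to 0.74) had a limma adjusted p of 0.652, and it was 0.22 without mutant replicate 1.

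Small subunit gene petN of cytochrome b6f had 6.93, 6.73 and 6.76 in the mutant, against 6.48, 6.78 and 6.41 in Col er-2, with 1 Col er-2 array inside the mutant range. It differed by 0.25 (-0.015 to 0.51; limma adjusted p = 0.704), and petA, which encodes cytochrome f, by 0.24 (-0.075 to 0.55). The petA difference was 0.12 without mutant replicate 1 and 0.13 without Col er-2 replicate 3. The atpE signals, of the epsilon subunit of the ATP synthase, were 12.07, 11.88 and 11.87 in the mutant, against 12.04, 12.12 and 11.94 in Col er-2, an overlapping set with a difference of -0.094 (-0.31 to 0.12) and a range of -0.16 to -0.049 with 1 array left out. The lowest difference of all plastid genes was that of atpA, the alpha subunit gene, at -0.22 (-0.59 to 0.15). Its signals were 6.71, 6.59 and 6.79 in the mutant, against 7.20, 7.02 and 6.54 in Col er-2. Col er-2 replicate 3 was again the lowest of the 6, and Col er-2 replicate 1 was the highest. The atpA difference was -0.41 without the lowest and -0.081 without the highest.

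The YCF class held ycf3 and ycf4, both of which encode assembly factors of photosystem I, while ycf1 and ycf2 are among the probe sets left out for listing a pair of gene IDs. The genes once called ycf5, ycf6 and ycf10 are listed as ccsA, petN and cemA and are counted there. For ycf3 the signals were 8.242, 7.985 and 8.347 in the mutant, against 7.739, 8.001 and 7.431 in Col er-2. Mutant replicate 2 and Col er-2 replicate 2 stood at the same level, and the other arrays were apart. The difference of 0.47 (95% confidence interval 0.11 to 0.82), 1.38-fold, was the highest of the 69 genes and had a limma adjusted p of 0.537.

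For ycf4 the signals were 6.58, 6.77 and 6.62 in the mutant, against 6.47, 6.67 and 6.51 in Col er-2, which overlapped, with a difference of 0.10 (-0.11 to 0.31). It was 0.044 without mutant replicate 2 and 0.16 without Col er-2 replicate 2. The median of the 2 YCF genes was 0.28, and 0.20 without Col er-2 replicate 3. A class of 2 genes gives no account of a group, and 0 of the 2 passed the limma threshold.

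Ribosomal protein genes, rpl for the large and rps for the small subunit of the plastid ribosome, numbered 15. Positive differences were found for 8 and negative for 7, with a median of 0.051 and a range of -0.16 (rps2) to 0.33 (rpl36), and 0 passed the limma threshold. The single gene of these with an unadjusted p under 0.05, rpl36, had signals of 9.07, 8.98 and 8.89 in the mutant, against 8.68, 8.70 and 8.55 in Col er-2. Each mutant array was higher than any Col er-2 array by more than the range within either genotype. The difference of 0.33 (95% confidence interval 0.13 to 0.53), 1.26-fold, had an unadjusted limma p of 0.00491 and an adjusted p of 0.396.

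Over 15 refits the rpl36 difference ran from 0.28 to 0.38, with limma or equal-variance adjusted p between 0.254 and 0.876. The ribosomal gene with the highest mean signal, rps3, had 11.71, 11.59 and 11.66 in the mutant, against 11.60, 11.38 and 11.49 in Col er-2. The groups met at mutant replicate 2 and Col er-2 replicate 1, and the difference was 0.16 (-0.040 to 0.36; limma adjusted p = 0.754). Without Col er-2 replicate 3 the median of the ribosomal class changed sign, to -0.057, with 6 of 15 genes positive. On that array the class had a median deviation of -0.19, against -0.017 to 0.084 on the other 5.

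The 4 genes of the plastid-encoded RNA polymerase had a median difference of 0.076, with 3 positive, 1 negative and 0 past the limma threshold. The median was 0.0079 without mutant replicate 3. For rpoA, the alpha subunit gene, the signals were 10.32, 10.34 and 10.34 in the mutant, against 10.29, 10.15 and 10.13 in Col er-2. Its mutant arrays were nearly identical and all higher, by 0.14 (-0.040 to 0.33; limma adjusted p = 0.761). The rpoC1 signals, of the beta' subunit, were 8.45, 8.18 and 8.56 in the mutant, against 8.21, 8.44 and 8.26 in Col er-2, and overlapped, with a difference of 0.091 (-0.18 to 0.36). The beta subunit gene rpoB and the beta'' subunit gene rpoC2 differed by 0.060 (-0.13 to 0.25) and -0.088 (-0.38 to 0.21). With 1 array left out rpoC1 ran from 0.0079, without mutant replicate 3, to 0.20, without mutant replicate 2, rpoB from 0.0080, without mutant replicate 3, to 0.099, without mutant replicate 1, and rpoC2 from -0.20, without Col er-2 replicate 3, to 0.0044, without mutant replicate 2. The rpoB unit is known to be read by the nuclear-encoded polymerase.

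**Figure D4:**
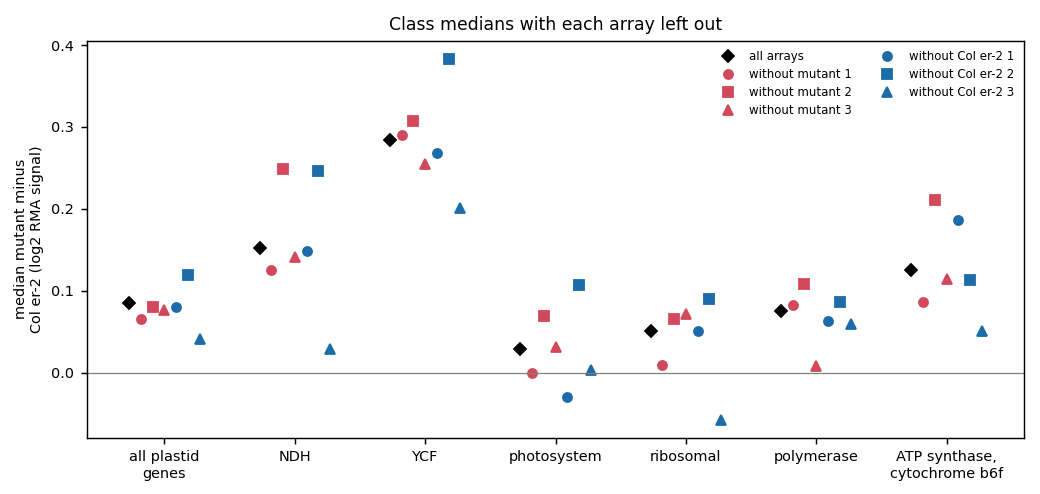
Median mutant minus Col er-2 difference in log2 RMA signal (vertical axis) of all plastid genes and of 6 classes (horizontal axis), with all 6 arrays (black diamonds) and with 1 array left out (red, a mutant array; blue, a Col er-2 array). Without Col er-2 replicate 3 the NDH median is 0.029 and the ribosomal median -0.057.

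Of the 6 remaining genes 4 had positive and 2 negative differences, and 0 passed the limma threshold. The rbcL signals, of the large subunit of Rubisco, were 7.45, 7.79 and 7.80 in the mutant, against 7.89, 7.99 and 7.63 in Col er-2, and the groups overlapped (difference -0.15, 95% confidence interval -0.45 to 0.15). For accD, which encodes the plastid subunit of acetyl-CoA carboxylase in fatty acid synthesis and is known to be read by the nuclear-encoded polymerase, they were 7.09, 7.17 and 6.90 in the mutant, against 7.21, 7.36 and 7.04 in Col er-2. Mutant replicates 1 and 2 lay inside the Col er-2 range, and the difference was -0.15 (-0.41 to 0.10). With 1 array left out the rbcL difference ran from -0.25, without Col er-2 replicate 3, to -0.035, without mutant replicate 1. That of accD ran from -0.23, without Col er-2 replicate 3, to -0.075, without Col er-2 replicate 2.

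The protease subunit gene clpP had 10.66, 10.76 and 10.75 in the mutant, against 10.70, 10.65 and 10.60 in Col er-2, a difference of 0.077 (-0.10 to 0.26). For matK, which encodes a factor for splicing group II introns, the signals were 9.65, 9.69 and 9.58 in the mutant, against 9.49, 9.58 and 9.41 in Col er-2. The matK groups touched, at mutant replicate 3 and Col er-2 replicate 2, with a difference of 0.15 (-0.042 to 0.34; limma adjusted p = 0.761). The envelope membrane protein gene cemA had 7.59, 7.18 and 7.28 in the mutant, against 7.14, 7.47 and 6.58 in Col er-2. Its difference of 0.28 (-0.21 to 0.78) was 0.044 without Col er-2 replicate 3, the lowest array, and 0.49 without Col er-2 replicate 2. Lastly ccsA, whose protein attaches heme to c-type cytochromes, had 9.61, 9.24 and 9.30 in the mutant, against 9.42, 9.21 and 9.41 in Col er-2, and differed by 0.036 (-0.24 to 0.31).

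Plastid genes are mostly transcribed in groups, so members of one unit can share a message. From textbook knowledge 12 such units were listed, and their differences were read side by side. With all arrays, the 3 genes of the psaA unit were negative, with rps14 at -0.031 beside psaA and psaB, as were both of the small ATP synthase unit, atpE and atpB. Each of the psaA unit's 3 genes turned positive with some 1 array left out. The 3 genes of the ndhC unit were positive, from 0.073 (ndhK) to 0.21, but without Col er-2 replicate 3 ndhK was at -0.020 and ndhJ at 0.072, against 0.21 with all arrays. Both measured genes of the clpP unit and both of the rpl33 unit were also positive. Without Col er-2 replicate 3, rpl20 of the clpP unit was at -0.094, against 0.20 with all arrays. Likewise atpB of the small ATP synthase unit was then at 0.044, against -0.010. In the rpl33 unit rpl33 and rps18 stayed positive without that array, at 0.088 and 0.094. The other 7 units held differences of both signs, of which the large ATP synthase unit ran from -0.22 (atpA) to 0.38 (atpI), with rps2, read in the same unit, at -0.16. The 7 measured genes of the rpl23 unit, which ends in rpoA, ran from -0.061 to 0.33, with 4 positive and 3 negative. The 7 genes of the ndhH unit ran from -0.013 to 0.24, with 5 positive and 2 negative.

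Placed in order along the plastid genome, 10 successive measured genes from petL to psbN had positive differences, of 0.077 to 0.33 with a median of 0.15. This stretch was singled out after its values were seen, 0 of its genes passed the limma threshold, and it covers more than one transcription unit. Highest in it was psbT, a photosystem II subunit gene, at 0.33 (-0.12 to 0.78), with psbN, which lies on the opposite strand, at 0.20 (-0.079 to 0.49). With 1 array left out psbT ran from 0.15, without mutant replicate 1, to 0.50, without Col er-2 replicate 2, and it was 0.17 without Col er-2 replicate 3. The psbN difference was 0.077 without Col er-2 replicate 3. Without Col er-2 replicate 3 the stretch was broken, and the longest run of positive differences anywhere was 4 genes.

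**Figure D5:**
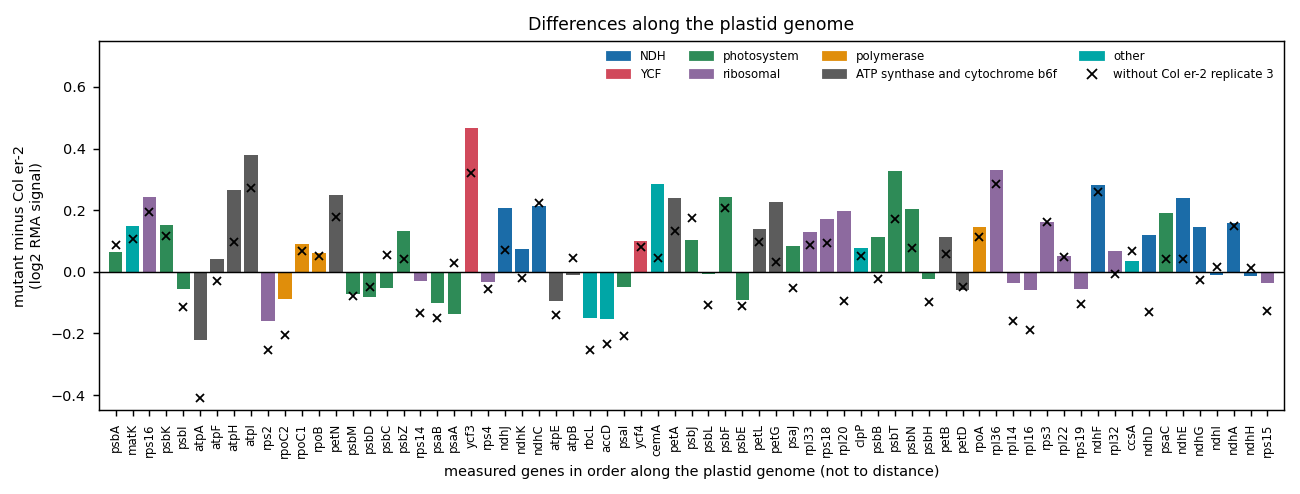
Mutant minus Col er-2 difference in log2 RMA signal (vertical axis) of the 69 measured plastid genes in their order along the plastid genome (horizontal axis, not to distance), with bars coloured by class for all 6 arrays and crosses for the fit without Col er-2 replicate 3. The run of 10 positive bars from petL to psbN is broken by crosses below 0.

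Nuclear genes that serve the plastid were looked up from 7 lists by locus, and 14 of their 140 entries could be named on the array. None of the 14 passed the limma threshold over all probe sets (Benjamini-Hochberg). Only 1, LHCB4.2, had an unadjusted limma p under 0.05, where 7.47% of all probe sets did. Nuclear photosynthesis genes, with 5 of 41 measured, had 4 negative and 1 positive difference and a median of -0.22. LHCB4.2, a light-harvesting protein gene, had 4.78, 4.72 and 4.68 in the mutant, against 5.01, 4.85 and 5.13 in Col er-2. RCA, the Rubisco activase gene, had 4.79, 4.99 and 4.95 in the mutant, against 5.04, 5.02 and 5.67 in Col er-2. The mutant arrays were lower than any Col er-2 array for both genes, which differed by -0.27 and -0.33 (limma adjusted p = 0.555 and 0.741). That order was seen for 5.57% of all probe sets. For RCA the gap was narrow, from 4.99 to 5.02, and Col er-2 replicate 3 stood well above the other arrays. On Col er-2 replicate 3, where the plastid genes were lowest, the median deviation of these 5 nuclear genes was highest, at 0.27.

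For the nuclear subunits of the NDH complex 3 of 22 entries were measured, all under the 35th percentile, with a median of 0.012; NdhL, NdhN and NdhS differed by -0.12, 0.016 and 0.012. Of plastid RNA processing factors 3 of 26 were measured, with CAF1, a group II intron splicing factor, at 0.29 and the editing factors CRR21 and LPA66 at 0.039 and -0.057. The mean signal of CRR21 was also under the 35th percentile. AT5G15700, listed as the phage-type polymerase gene RPOTmp though the gene table does not give that symbol, was the only measured entry of 8 in the list of sigma factors and plastid RNA polymerases and differed by 0.14. Starch synthesis genes APL3 and SBE2.2, 2 of 6, differed by 0.24 and 0.17. Of the 22 proteins of the transcriptionally active chromosome and the 15 nuclear plastid ribosomal proteins listed, 0 could be named here.

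The tissue was read from root cap and stele markers. The polygalacturonase gene AT1G65570, listed as a root cap marker, and ACR4, 2 of 8 root cap entries, differed by 0.43 and 0.076, and the stele genes LHW, IRX15, OPS and IRX10 by 0.22, 0.22, 0.19 and 0.13. None of these 6 passed the limma threshold, and 0 had an unadjusted p under 0.05. Median deviations of the 2 root cap genes were 0.043, 0.077 and 0.26 on mutant replicates 1, 2 and 3, against -0.0033, -0.36 and -0.016 on Col er-2 replicates 1, 2 and 3. The low median on Col er-2 replicate 2 came from AT1G65570 alone, at 8.73, 7.95 and 8.64 on Col er-2 replicates 1, 2 and 3. ACR4 was not low there, at 5.49, 5.55 and 5.55 on the same arrays. For the plastid genes Col er-2 replicate 2 was the highest of the Col er-2 arrays. The part of cell makeup in the plastid values was not tested.

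Mitochondria-encoded genes, the other organelle transcripts on the array, could be matched for 11 genes by symbol. They had 8 positive and 3 negative differences, a median of 0.059 and 0 past the limma threshold. Their median deviation was also lowest on Col er-2 replicate 3, at -0.097, against -0.037 to 0.057 on the other 5 arrays. A measure of RNA integrity, the 3' minus 5' signal of a GAPDH control transcript, was 0.067, 0.098 and 0.047 on mutant replicates 1, 2 and 3, against 0.10, 0.18 and 0.22 on Col er-2 replicates 1, 2 and 3. This GAPDH measure was higher on every Col er-2 array than on any mutant array, narrowly so for Col er-2 replicate 1, and highest on Col er-2 replicate 3. The actin and ubiquitin controls of the same kind had overlapping groups and no extreme value on that array. The part of RNA integrity in the plastid values was not tested.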

How the data were processed

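Transcript levels were measured on 6 Affymetrix ATH1 arrays. The deposited table holds 1 log2 signal per probe set and array, and per the submitters' processing notes the tools were limma, RMA and Affymetrix Expression Console, given without version or role. The deposited log2 signals were taken to be RMA values because of these tool names and their range. Groups and replicate numbers came from the labels, which do not say how the replicates were separated beyond the design text's word biological.

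From the 22810 probe sets, 64 controls were left out, and 22746 were tested as mutant minus Col er-2 with limma 3.58.1 in R 4.3.3 (lmFit and eBayes, two-sided), with Benjamini-Hochberg adjustment over all of them and a threshold of 0.05. The median standard error of a difference was 0.10, and the number of arrays limits the precision. Probe sets were named through a probe table that lists part of the array, by gene ID in the TAIR10.1 table. There 13513 probe sets named a single gene, 503 several and 8730 were not listed. Gene start positions were used only to set the plastid genes in order along the plastid genome.

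Classes followed gene symbols. Array values are given, in each class, for the 2 genes with the smallest p and the 1 with the highest mean signal, and for every gene outside the 6 classes; those of atpA were added after its difference was seen to be the lowest. The members, the classes and the lists were chosen with earlier results of these data known. Lists are described by counts and medians. The fit was tested on simulated data, drawn independently for each probe set and array. That test therefore cannot show how the fit handles effects shared by replicates or by many genes of 1 array. The main fit did not take the replicate numbers as pairs, and the labels do not say that same-numbered arrays belong together. Deviations of same-numbered arrays correlated at 0.504, 0.065 and 0.176, all positive. With the replicate number as a block 109 probe sets were called, against 6 without it. Whether same-numbered arrays share an effect was not tested. Alternatives were a block for the replicate number, each array left out, replicate 1 of both genotypes left out, other scalings, a filter on dim probe sets, other variance settings and thresholds.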

Additional observations from a re-analysis of the deposited data

How the results depend on the processing

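In each of 15 refits 0 plastid genes passed an adjusted p under 0.05, and 0 passed one under 0.1; the smallest adjusted p was 0.254, of rpl36, with the replicate number as a block. By its construction the looser threshold of an unadjusted p under 0.05 gave 6. The block moved no median, since it leaves the differences as they are, and it changed no plastid call, while over all probe sets it raised the calls to 109 (0.479%), against 6 without it, and the other 14 refits gave 1 to 27. Using all single-gene probe sets of a gene also changed nothing, since each gene has 1. Of 85 recomputed medians 84 moved by less than the spread between replicates, a standard deviation of the per-array medians within genotypes. This count shows little, since leaving out 1 of 3 arrays seldom moves a median by more than that. The NDH median counts among the 84 although it fell from 0.15 to 0.029 without Col er-2 replicate 3, with a spread of 0.13. The median that moved by more was the ribosomal one, at -0.057 without Col er-2 replicate 3. With 1 array left out it ran from -0.057 to 0.090. The photosystem median was -0.029 without Col er-2 replicate 1 and -0.032 without replicate 1 of both genotypes. With 1 array left out the median of all plastid genes ran from 0.042 to 0.12 and that of NDH from 0.029 to 0.25. Median centring gave 0.060 for all plastid genes and repeated quantile normalization 0.070. With the 8 probe sets that list a pair of plastid gene IDs, a choice made after the data were seen, the median over 77 was 0.068 and 0 passed. Taken alone, the 8 had 3 positive and 5 negative differences and a median of -0.050. Their median deviation was -0.028 on Col er-2 replicate 3 and lowest on mutant replicate 3, at -0.065. Differences were recomputed for 33 genes, 21 chosen by the rule for array values and the rest added afterwards. The block, all probe sets of a gene and the refits that change only the variance estimate leave each difference as it is. Signs could not turn in them, though they are counted. Of 494 recomputed differences of the 33 genes, 478 kept their sign and 16, of 8 genes, turned it. With 1 array left out these ran from -0.036 to 0.017 (ndhI), -0.14 to 0.0084 (psbM), -0.078 to 0.11 (ccsA), -0.23 to 0.028 (psaA), -0.19 to 0.076 (psaB), -0.13 to 0.028 (rps14), -0.20 to 0.0044 (rpoC2) and -0.035 to 0.14 (psbA). Without replicate 1 of both genotypes ccsA was at -0.042, rps14 at 0.0053 and psbA at -0.069, and psbA was at -0.0031 with array weights. For all of these the cause was not tested. Arrays have no read depth. Among the plastid genes a signal below the 35th percentile limits atpI, petL, petG and ndhE.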
